A study of Xenopus laevis with 4 samples.

Results

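Transcripts of glutamate dehydrogenase and of other enzymes that make or use glutamate were examined in early gastrulae of the frog *Xenopus laevis*. Members were taken by gene name, as the models named *glud1* and those of *gls*, *gls2*, *glul*, *got1*, *got2*, *gpt2* and *oat* with an optional .L or .S ending, which marks the homeologs of this allotetraploid frog. This gave 9 of the 45098 gene models, namely *glud1.1*, *glud1.L*, *gls.L*, *gls.S*, *got1.S*, *got2.L*, *got2.S*, *gpt2.L* and *gpt2.S*. The set as a whole was chosen by measured values, the low means of *glud1.1* and *glud1.L* in Gcn5-AS embryos, so the difference between groups at these 2 models is described here with no test. A further 5 models share the short name *oat*, *glul* or *gls2* but carry other name endings, such as *oat.1.L*, and are given apart from the members.

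In the treated group, 0.8 ng of Gcn5-AS was injected into 1-cell embryos. Gcn5-AS is an antisense DNA oligonucleotide against the mRNA of *gcn5* (*kat2a*), a histone acetyltransferase of the SAGA co-activator complex. The controls had been injected with water. Whole embryos were collected at stage 10.5, with 2 samples per group and 10 pooled embryos per sample, and RNA was sequenced after depletion of ribosomal RNA. Samples were grouped by title and knockdown label, because the treatment text of the controls repeats that of the Gcn5-AS injection. The controls received no oligonucleotide, and so the effects of *gcn5* loss and of injecting an oligonucleotide cannot be told apart in these samples. Whether the samples of a group are from different clutches is not labelled, so the p-values reflect the scatter of these samples alone, and that scatter may be technical. The antisense sequence is shown because it defines the treated group. Capitals mark the stretch whose bases are joined by unmodified linkages, flanked on both sides by linkages with a dimethyl-ethylene-diamine modification.
Gcn5-AS: tcaaaCACAAGCcgggtt

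Glutamate dehydrogenase is a mitochondrial matrix enzyme that converts glutamate and NAD(P)+ into 2-oxoglutarate, ammonia and NAD(P)H, and can run in reverse. It thereby links amino acid breakdown to the tricarboxylic acid (TCA) cycle. Glutaminase supplies glutamate from glutamine, glutamine synthetase makes glutamine from glutamate and ammonia, and transaminases pass the amino group of glutamate to and from other amino acids without releasing ammonia. A frog embryo has no outside food before it feeds and draws on amino acids stored as yolk protein.

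Values are normalized read counts, which are the reads of a gene model in a library divided by the size factor of that library. The deposited table gives them as group means, from which the whole reads of each library were recovered. The 2 libraries of a group are called X and Y, where X has the larger size factor, because the means do not show which of them is replicate 1 or 2. Totals ranged from 2351039 to 4093025 reads, and the 10 most abundant models of a library took 36.0% to 50.2% of them. The targeted *kat2a.L* had 52.9 and 62.6 in the Gcn5-AS libraries, against 50.4 and 104 in the controls, and *kat2a.S* had 13.7 and 35.5, against 27.9 and 45.7, so neither model separated the groups. All 16 models of the 8 gastrula marker genes with a row were measured (mean of at least 10), with summed counts of 9610 and 7516 in Gcn5-AS libraries, against 4022 and 4130 in controls. Of 8 models of tissues formed later, 6 had no read and the others summed to 0 and 0 in Gcn5-AS libraries, against 4.82 and 1.34 in controls. Oocyte and egg markers, 7 of 8 with a row and none of their 9 models at 0, summed to 4128 and 2566 in Gcn5-AS libraries, against 1180 and 1524 in controls. Without *mos* they summed to 207 and 322, against 384 and 311. The part of such marker differences in the results below was not tested. In whole embryos, fewer cells with a transcript and less of it per cell cannot be told apart.

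Both *glud1* models were far lower in Gcn5-AS embryos. Transcripts of *glud1.1* had 17.2 and 16.8 normalized counts in Gcn5-AS X and Y, against 246 and 218 in control X and Y. These values rest on 25 and 18 reads in the Gcn5-AS libraries, against 458 and 162 in the controls. Neither Gcn5-AS library came near a control, and the libraries of a group lay close together. The 95% counting intervals (exact Poisson, counting error only) were 11.1 to 25.4 and 9.96 to 26.6 in Gcn5-AS X and Y, against 224 to 269 and 186 to 254 in control X and Y. The group means were 16.99 ± 0.256 in Gcn5-AS embryos and 232 ± 19.6 in controls (SD, n = 2 each), a 13.6-fold lower level and a log2 fold change of −3.69 (Gcn5-AS over control, group means plus 1).

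The second model, *glud1.L*, had 16.5 and 37.4 normalized counts in Gcn5-AS X and Y, against 168 and 182 in control X and Y. The reads behind them were 24 and 40 in Gcn5-AS libraries, against 313 and 135 in controls. The groups did not overlap here either, but Gcn5-AS X was lower than Gcn5-AS Y. Counting intervals were 10.6 to 24.5 and 26.7 to 50.9 in the Gcn5-AS libraries, against 150 to 187 and 152 to 215 in the controls. Means were 26.9 ± 14.8 in Gcn5-AS embryos and 175 ± 9.73 in controls (SD, n = 2 each), 6.49-fold lower with a log2 fold change of −2.65. Without Gcn5-AS Y this value was −3.33, the farthest that leaving out a library moved it.

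**Figure D1:**
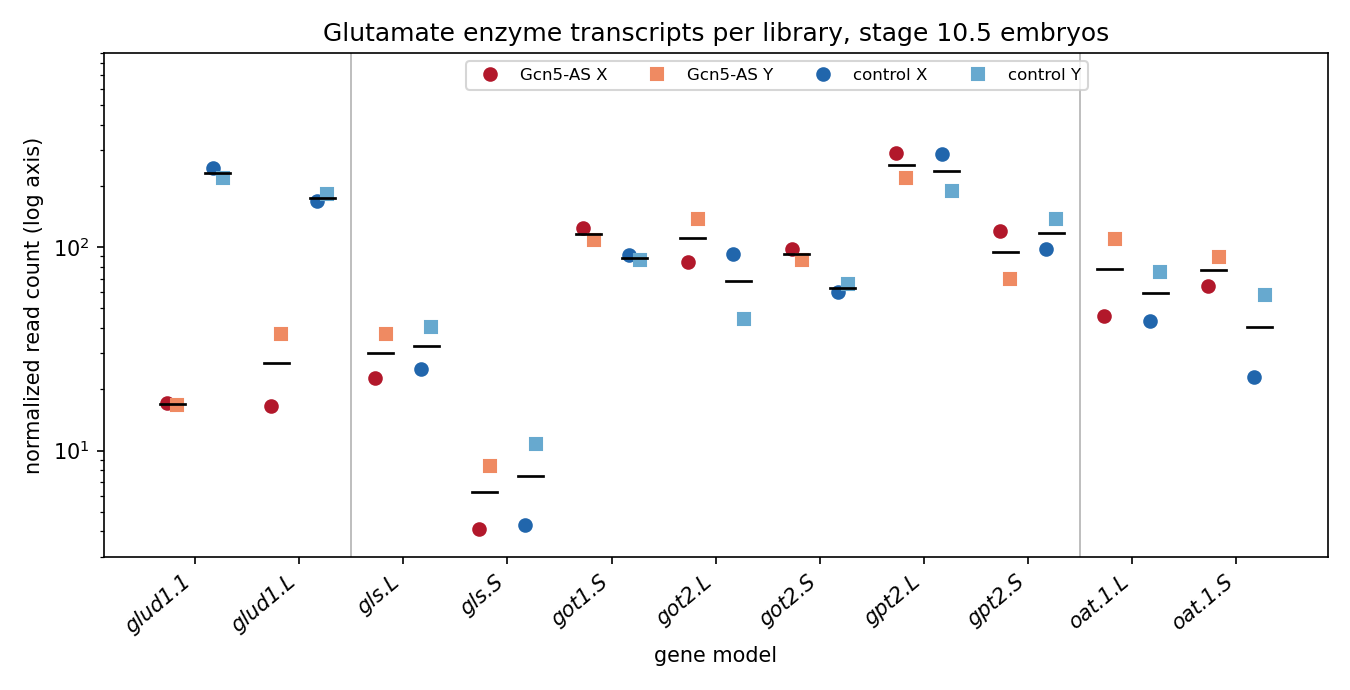
Normalized read counts (log axis) of the glutamate enzyme models in each library, Gcn5-AS left and control right of each name, with black bars for group means. Vertical lines set the *glud1* models and the *oat.1* models apart from the other members. Only at *glud1.1* and *glud1.L* do the groups lie several-fold apart.

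Summed over both models, *glud1* transcripts had 33.7 and 54.2 normalized counts in Gcn5-AS X and Y, against 413 and 399 in control X and Y. The sum was thus 9.25-fold lower by its means, 43.9 ± 14.5 in Gcn5-AS embryos and 406 ± 9.84 in controls (SD, n = 2 each). The fold between group means was larger at *glud1.1* than at *glud1.L*, and whether the models differ was not tested. Of the reads of both models, *glud1.1* held 51.0% (exact 95% binomial interval from 36.3% to 65.6%) in Gcn5-AS X and 31.0% (19.5% to 44.5%) in Gcn5-AS Y. Its share was 59.4% (55.8% to 62.9%) in control X and 54.5% (48.7% to 60.3%) in control Y. Only the share in Gcn5-AS Y had an interval apart from those of both controls. A RefSeq gene table of another assembly (Xenopus_laevis_v10.1) lists the *glud1* genes as *glud1.L* and *glud1.S*. The name *glud1.1* is not among its symbols, and whether this model is the S homeolog was not tested. Reads of near-identical homeologs may also have been divided between the models by the read counting, so the split within the sum is less certain than the sum.

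The agreement between libraries of a group is given as a description only. It is not independent of the choice of these models, since a low Gcn5-AS mean limits both libraries of that group. At *glud1.1* the absolute log2 ratio of library X to Y was 0.03 within the Gcn5-AS group and 0.17 within the controls, and 3.26% and 23.0% of the 11272 models averaging at least 10 counts had a smaller ratio. At *glud1.L* it was 1.13 within the Gcn5-AS group and 0.11 within the controls, where 86.6% and 14.9% of models had a smaller ratio. Medians over all 11272 models were 0.49 in the Gcn5-AS group and 0.40 in controls. By this measure the *glud1.1* libraries were closer to each other than those of most models in both groups, and for *glud1.L* this held in the controls only. The ratio of 0.03 rests on 25 and 18 reads. Their counting intervals, 11.1 to 25.4 and 9.96 to 26.6 normalized counts, allow a much larger ratio.

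Among the 11272 models, ordered by the log2 fold change of the group means from the lowest, *glud1.1* stood at rank 10 and *glud1.L* at rank 53. Both models were chosen by this difference, so their low ranks follow from the choice and are a description only. The middle 90% of models lay between −1.28 and 1.25, with a median of 0.03. Scaling by total reads in place of the deposited size factors shifted the median fitted log2 fold change of all models by −0.17. With that scaling the group-mean values were −3.86 for *glud1.1* and −2.88 for *glud1.L*. They were −3.71 and −2.73 after subtracting the median fitted value of −0.15, which is not a median of group-mean ratios.

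All models were then compared by limma-voom on the recovered reads, at an adjusted p under 0.1, and a model past this threshold is said to be called. Over all 11272 models 470 were called lower (4.17%) and 503 higher (4.46%). The split depended on the scaling, with 171 lower and 19 higher when libraries were scaled by total reads. Of the 9 members 8 had a mean count of at least 10 and were tested. The test result of *glud1.1* and *glud1.L* is left out, since this difference chose them. None of the other 6 tested members was called by limma-voom or by limma-trend, and none had an unadjusted p under 0.05 in either. Over all 11272 models 2481 had an unadjusted p under 0.05 in limma-voom. Both Gcn5-AS libraries lay below both controls in 25.0% of all models and in none of these 6. They lay above both controls in 26.3% of all models and in 2 of the 6, *got1.S* and *got2.S*.

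The mitochondrial aspartate aminotransferase genes *got2.L* and *got2.S*, whose enzyme moves the amino group between glutamate and aspartate, had higher means in Gcn5-AS embryos that did not pass the test. The gene model *got2.L* had 84.5 and 137 in Gcn5-AS X and Y, against 92.2 and 44.4 in control X and Y. The groups overlapped, and the fitted log2 fold change was 0.66 (95% interval from −0.18 to 1.51, limma adjusted p of 0.354). For *got2.S* the counts were 97.6 and 86.9 in Gcn5-AS embryos, against 60.0 and 65.9 in controls. Here the groups did not overlap, with a log2 fold change of 0.56 (interval from −0.22 to 1.33, adjusted p of 0.396).

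The cytosolic counterpart *got1.S* had 124 and 108 in Gcn5-AS X and Y, against 91.1 and 86.1 in control X and Y. The Gcn5-AS libraries were both higher, by a fitted log2 fold change of 0.39 (95% interval from −0.36 to 1.13, limma adjusted p of 0.56). Its means were 116 ± 11.3 in Gcn5-AS embryos and 88.6 ± 3.58 in controls (SD, n = 2 each). With scaling by total reads neither *got1.S* nor *got2.S* separated the groups, and *gls.L* lay below both controls instead. No alternative setting called a *got* model. The fitted value of *got2.L* depended on single libraries, with 1.26 without control X and 0.22 without control Y.

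The alanine aminotransferase gene *gpt2*, whose enzyme links glutamate to alanine and pyruvate, gave values of both signs. For *gpt2.L* there were 291 and 219 counts in Gcn5-AS X and Y, against 286 and 188 in control X and Y. The groups overlapped, with a log2 fold change of 0.11 (95% interval from −0.63 to 0.85, limma adjusted p of 0.884). Counts of *gpt2.S* were 120 and 70.1 in Gcn5-AS embryos, against 98.1 and 137 in controls. These overlapped, with a log2 fold change of −0.30 (interval from −1.10 to 0.49, adjusted p of 0.676).

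Glutaminase, encoded by *gls*, releases glutamate and ammonia from glutamine. For *gls.L* there were 22.7 and 37.4 counts in Gcn5-AS X and Y, against 25.2 and 40.3 in control X and Y. These overlapped as well, with a log2 fold change of −0.08 (95% interval from −1.03 to 0.87, limma adjusted p of 0.937). The other homeolog *gls.S* had a mean count of 6.89 and was not tested. Its counts were 4.12 and 8.41 in Gcn5-AS embryos, against 4.29 and 10.8 in controls, which rest on 6 and 9 reads against 8 and 8.

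The 95% intervals of the 6 tested members other than *glud1* spanned from −1.10 at the lowest to 1.51 at the highest. A decrease as large as that of the *glud1* means, log2 −2.65 or lower, lay outside each of these intervals, while changes of about 2-fold lay inside some of them. The *glud1* models were chosen for their low values, so this compares sizes only and is no test of a difference between genes. The sign of *gpt2.L* turned with scaling by total reads, without Gcn5-AS X and without control Y, that of *gls.L* without Gcn5-AS X and without control Y, and that of *gpt2.S* without Gcn5-AS Y.

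**Figure D2:**
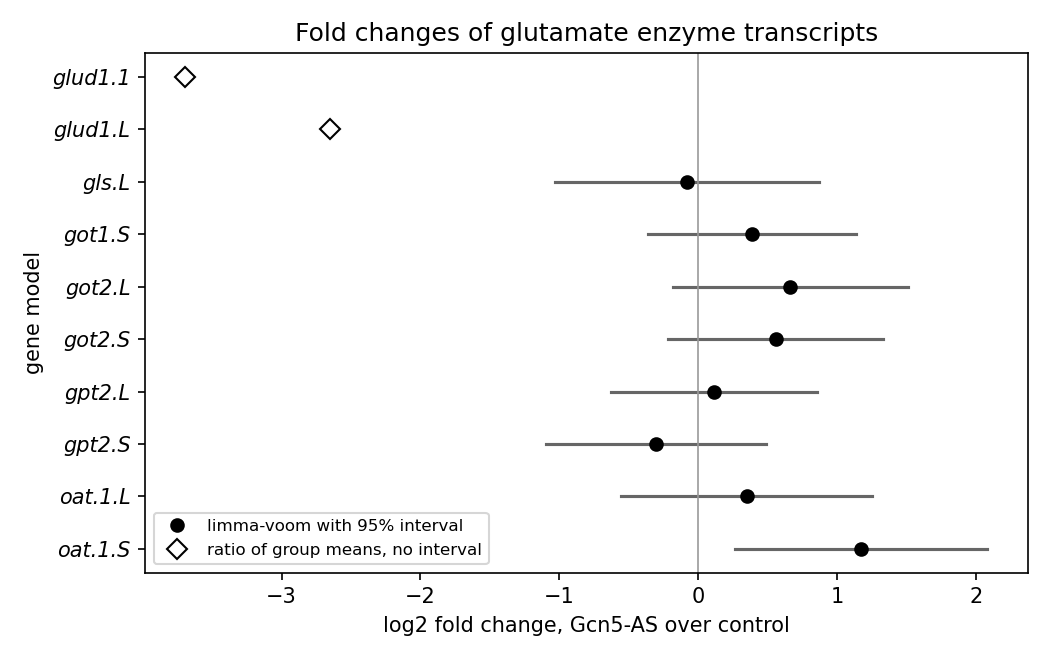
Log2 fold change of Gcn5-AS over control for each glutamate enzyme model averaging at least 10 counts. Circles with lines are limma-voom values with 95% intervals, and diamonds are ratios of group means (plus 1) for the *glud1* models, given with no interval. The diamonds sit at −3.69 and −2.65, and the interval of each other model except *oat.1.S* includes 0.

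The models that share only the short name with a listed gene had *oat*, *glul* or *gls2* as that name. Ornithine aminotransferase, encoded by *oat*, passes the amino group of ornithine to 2-oxoglutarate and so forms glutamate. For *oat.1.S* there were 64.6 and 89.7 counts in Gcn5-AS X and Y, against 23.1 and 57.8 in control X and Y. Both Gcn5-AS libraries lay above both controls, with a log2 fold change of 1.17 (95% interval from 0.26 to 2.08) and a limma adjusted p of 0.122, which missed the threshold. Its log2 fold change was 1.44 (adjusted p of 0.0923) without Gcn5-AS X, 0.38 (adjusted p of 0.937) without control X and 0.92 (adjusted p of 0.533) with scaling by total reads. Counts of *oat.1.L* were 46.0 and 110 in Gcn5-AS embryos, against 43.4 and 75.3 in controls. These overlapped, with a log2 fold change of 0.35 (interval from −0.55 to 1.25, adjusted p of 0.675).

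Reads of the models named *glul-like.1* and *gls2-like* were too few for a comparison. No model bears the name *glul* or *gls2* with only an optional .L or .S ending. Whether these models stand for glutamine synthetase and the second glutaminase was not tested, so the levels of those 2 genes are not known from them. The model *glul-like.1.L* had 0 and 2 reads in Gcn5-AS X and Y, and *glul-like.1.S* had 0 and 1, against no read of either in the controls. There a count of 0 allows up to about 3 reads per library. That is a 1-sided 95% Poisson limit, unlike the 2-sided intervals given for *glud1*. The model *gls2-like.L* had 3 and 0 reads in Gcn5-AS libraries, against 0 and 1 in controls. Thus none of these 3 models had more than 3 reads in any library.

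Models with a profile most like those of *glud1* were found by the Euclidean distance between log2 values (normalized count plus 1), each minus the mean of its own model, over the 4 libraries and 2840 other models that have a symbol and average at least 50 counts. Among the 5 models nearest to *glud1.1* was *ranbp2.S*, a nuclear pore protein gene, at a distance of 0.64. It had 12.4 and 12.1 in Gcn5-AS X and Y, against 114 and 104 in control X and Y. Others were *skiv2l2-like.S*, an RNA helicase gene (0.81), *ehmt2.L*, a histone H3K9 methyltransferase gene (0.98), and *wdr90.L* (1.00). The other *glud1* model stood at rank 7, at a distance of 1.26. Nearest to *glud1.L* was *mdn1.L*, a gene for a ribosome assembly ATPase (distance 0.57), with 8.93 and 20.5 in Gcn5-AS X and Y, against 117 and 72.6 in control X and Y. It was followed by the keratin gene *krt.L* (0.57), *ints2.S* of the Integrator complex (0.59), *mau2.L*, a cohesin loader gene (0.67), and *skiv2l2-like.S* (0.68). From *glud1.L*, *glud1.1* ranked at 34. The models were picked for their likeness over these 4 libraries, and the distances hold the difference that chose the *glud1* models, so both are a description.

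**Figure D3:**
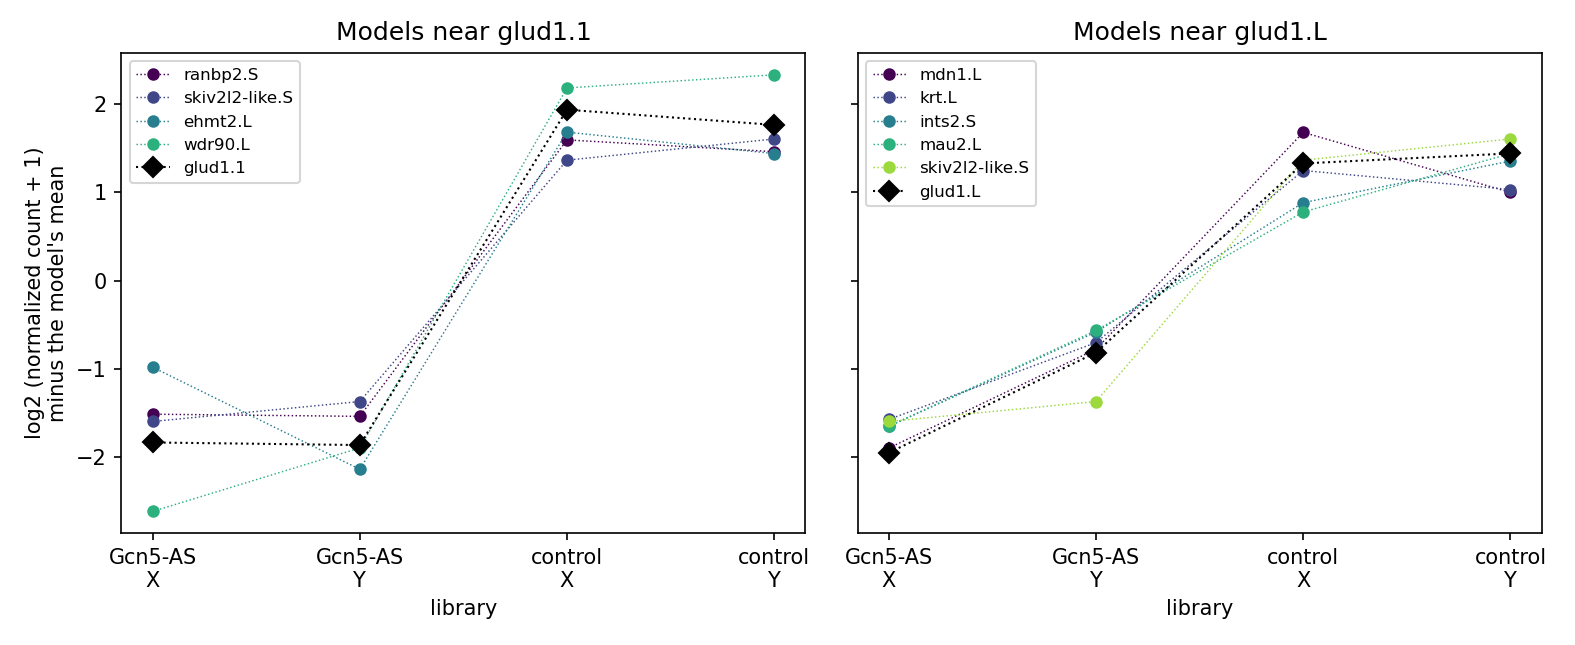
Log2 normalized counts (plus 1) minus the mean of each model, in the 4 libraries, for *glud1.1* (left) and *glud1.L* (right, black diamonds) and models among the 5 nearest of each (coloured circles). Dotted lines only connect the points of a model, and libraries have no order. The libraries Gcn5-AS X and Y lie apart for *glud1.L* and together for *glud1.1*.

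Other genes of glutamate metabolism were taken from a list of 103 symbols, of which 67 had a row, with 98 models. Of the 52 tested models 28 had a fitted value below 0 and 24 above. Their median log2 fold change was −0.03, and that over all 11272 models was 0.02. Limma-voom called 3 of the 52 lower and 2 higher, shares near those of all models (4.17% lower and 4.46% higher). With scaling by total reads 38 were below 0 and 14 above, with a median of −0.23 against −0.15 over all models.

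Of genes for proline, arginine and polyamine metabolism, all 5 tested models had a fitted value below 0, with a median of −0.77. Both homeologs of *odc1* are among the 5. Over all 11272 models 5527 were below 0. This group was singled out after its values were seen and was not tested as a group. In it 2 models fell, against 4.17% called lower over all models. Transcripts of *pycr1.L*, whose enzyme completes proline synthesis from glutamate, had 5.50 and 21.5 counts in Gcn5-AS X and Y, against 38.1 and 44.4 in control X and Y. The log2 fold change was −2.03 (95% interval from −3.24 to −0.82, limma adjusted p of 0.0496), −0.90 (not called) without Gcn5-AS X and −2.80 (called) without Gcn5-AS Y. The arginase gene *arg1.L*, whose enzyme yields ornithine, had 7.56 and 20.5 in Gcn5-AS embryos, against 35.9 and 35.0 in controls. Its log2 fold change was −1.61 (interval from −2.73 to −0.48, adjusted p of 0.0922), −0.78 (not called) without Gcn5-AS X and −2.19 (called) without Gcn5-AS Y. The call of *arg1.L* was also lost with no filter (limma adjusted p of 0.157) and with limma-trend (adjusted p of 0.123). At both *pycr1.L* and *arg1.L* Gcn5-AS X was the lowest library, as at *glud1.L*. The models not called were *odc1.L* and *odc1.S* (−0.77 and −0.76), for the first enzyme of polyamine synthesis, and *aldh18a1.L* (−0.48), for the enzyme that commits glutamate to proline synthesis.

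Amidotransferases, which take the amide nitrogen of glutamine and leave glutamate, had 5 of 7 tested models below 0 and a median of −0.39. With scaling by total reads the median was −0.53, against −0.15 over all models. The 1 called model was *gfpt1.S*, for the enzyme that opens hexosamine synthesis, with 197 and 235 in Gcn5-AS X and Y, against 626 and 568 in control X and Y. It fell by 1.47 on the log2 scale (95% interval from −2.18 to −0.75, limma adjusted p of 0.0212). Its homeolog *gfpt1.L* had 229 and 181 in Gcn5-AS embryos, against 465 and 272 in controls, a log2 fold change of −0.80 with an adjusted p of 0.199. The purine synthesis genes *ppat.S* and *ppat.L* had −0.96 and −0.39 and were not called.

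The 2 called increases lay in other groups. Of 7 tested transporter models 4 were above 0 (median 0.45), and *slc25a11.L*, for the carrier that exchanges 2-oxoglutarate for malate across the inner mitochondrial membrane, rose. It had 207 and 157 in Gcn5-AS X and Y, against 49.9 and 98.2 in control X and Y, a log2 fold change of 1.43 (95% interval from 0.62 to 2.23, limma adjusted p of 0.0382). Without control X this was 0.87 (adjusted p of 0.773). The transporter models *slc25a12.L* (1.31), *slc1a5.L* (0.55) and *slc7a5.L* (−0.83) were not called. Of 6 tested models for glutathione synthesis and folate glutamylation 4 were above 0 (median 0.11), and *fpgs.S*, whose enzyme adds glutamate residues to folates, rose. It had 94.1 and 115 in Gcn5-AS embryos, against 33.2 and 64.6 in controls, a log2 fold change of 1.24 (interval from 0.40 to 2.07, adjusted p of 0.0806). Without control X this was 0.68 (adjusted p of 0.863), and the call was also lost with no filter (adjusted p of 0.137) and with limma-trend (adjusted p of 0.114). The others of that group named by the same rule were *chac2.S* (−0.37), *gclm.L* (0.24) and *ggt1.L* (0.16).

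None of the 22 tested TCA cycle models was called by limma-voom, against 4.17% called lower and 4.46% called higher over all 11272 models. An unadjusted p under 0.05 was found in 2481 of the 11272 models and in 3 of the 22. Among the 3 were *idh3b.S* (a subunit of isocitrate dehydrogenase, 1.05) and *sdha.S* (a subunit of succinate dehydrogenase, −1.34). The TCA models lay on both sides of 0, with 13 above and a median of 0.01, against 0.02 over all models. With scaling by total reads both medians were −0.15. Genes for proteins known in mammals to act on glutamate dehydrogenase lay close to 0. They were *sirt4.L* (−0.11), whose product ADP-ribosylates the enzyme, *sirt5.L* (0.03) and *hadh.L* (−0.19), and none of these 3 was called or had an unadjusted p under 0.05 in limma-voom. The last groups held 1 tested model each, *psat1.L* of the other glutamate transaminases (−0.55) and *aldh5a1.S* of the GABA enzymes (−0.13), and neither was called.

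**Figure D4:**
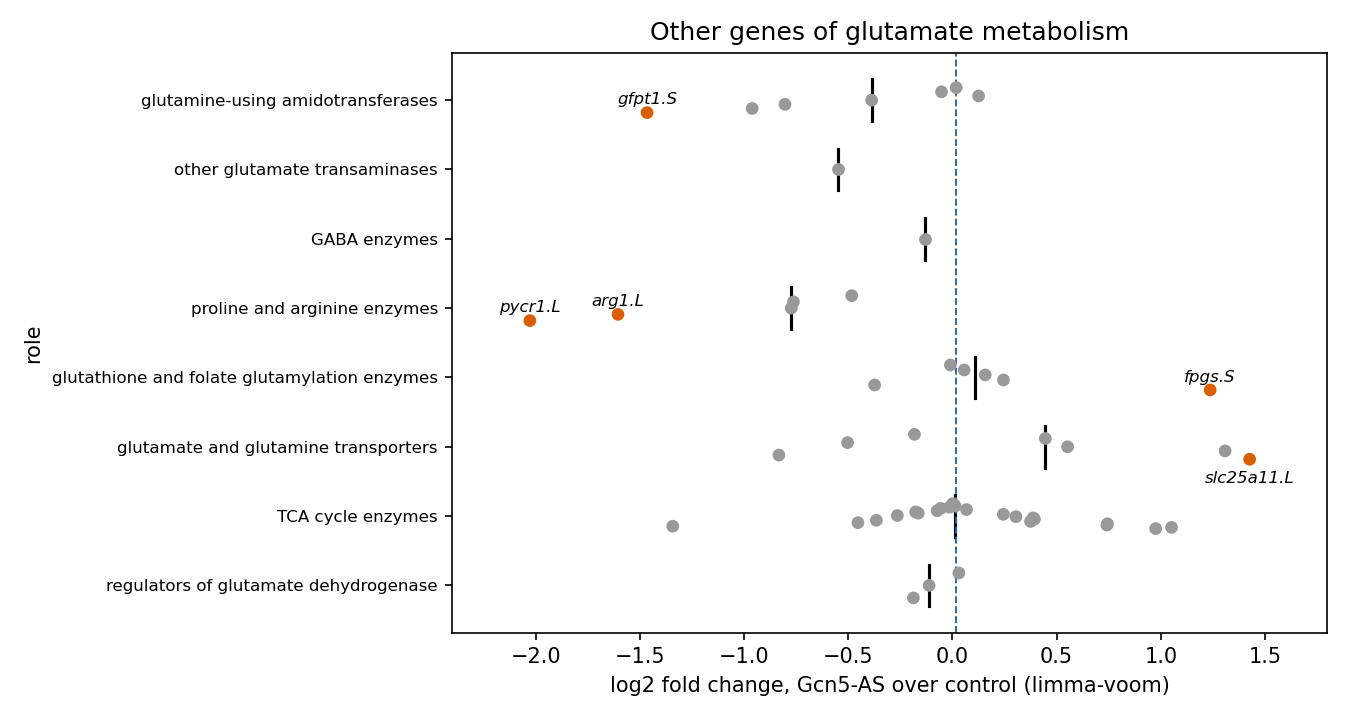
Fitted log2 fold change (limma-voom, Gcn5-AS over control) of the 52 tested models of the wider list by role. Each point is a gene model, orange and named where the adjusted p is under 0.1 and grey otherwise, black bars are group medians, and the dashed line is the median of all 11272 models. The 3 called decreases lie among proline, arginine and amidotransferase genes, and the 2 called increases among transporters and folate glutamylation.

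The calls of the wider list changed with the libraries and the scaling. None of the 5 was called with scaling by total reads, where 190 of all 11272 models were called. None of the 5 kept its call in every fit that left out 1 library. The log2 fold changes themselves moved less in some of these settings. With scaling by total reads they were −1.61 for *gfpt1.S*, −2.04 for *pycr1.L*, −1.64 for *arg1.L*, 1.22 for *slc25a11.L* and 1.02 for *fpgs.S*, and without control X they were −1.40 for *gfpt1.S*, −2.14 for *pycr1.L* and −1.57 for *arg1.L*. Without control Y the log2 fold changes were −1.54 for *gfpt1.S*, −1.96 for *pycr1.L*, −1.63 for *arg1.L*, 1.85 for *slc25a11.L* and 1.64 for *fpgs.S*. Without Gcn5-AS X they were −1.34 for *gfpt1.S*, −0.90 for *pycr1.L*, −0.78 for *arg1.L*, 1.24 for *slc25a11.L* and 1.40 for *fpgs.S*. The TCA model *idh2.S*, named after its values were seen, had 19.2 and 227 in Gcn5-AS X and Y, against 27.3 and 202 in control X and Y. Over all 4 libraries its log2 fold change was −0.06 (limma adjusted p of 0.976). Its value in a fit with a single Gcn5-AS library therefore depended on which library was kept. At *idh2.S* and *gls.L* library Y was above library X in both groups. At *got2.L* and *gpt2.S* the order of X and Y differed between the groups. Whether the X libraries, or the Y libraries, belong together across groups was not tested. A difference between X and Y shared by both groups counts as scatter within groups in the fits. Without Gcn5-AS Y the log2 fold changes of the 5 models called over all 4 libraries were −1.59 for *gfpt1.S*, −2.80 for *pycr1.L*, −2.19 for *arg1.L*, 1.64 for *slc25a11.L* and 1.12 for *fpgs.S*.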

How the data were processed

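Per the labels, the authors mapped 75-nucleotide single-end reads to version JGI 9.1 of the *X. laevis* genome with STAR (1 mismatch allowed) and compared groups with DESeq. The read counter, annotation, strand setting and software versions were not given in the sources used here. Overlapping and antisense genes may therefore share reads. The deposited table holds a mean signal per gene model and group, that is, read counts over size factors set by the authors, as a mean of 2 libraries. The deposited log2 fold changes and p-values are the authors' own comparison and were not used.

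Each group mean is a weighted sum of whole reads of 2 libraries. All 21410 Gcn5-AS and 21721 control means above 0 had exactly 1 whole-read solution within a relative tolerance of 3e-14, which gave reads and size factors (1.46 and 1.07 for Gcn5-AS X and Y, and 1.87 and 0.744 for control X and Y). The recovery and the fit were tested on simulated data. For the fit the same scatter was set for all models, with no difference between X and Y shared by both groups. That run therefore does not test the fit where such a difference exists. Models averaging at least 10 normalized counts were fitted by the voom, lmFit and eBayes steps of limma 3.58.1 (R 4.3.3), two-sided, with Benjamini-Hochberg adjustment over all 11272 models and the threshold of 0.1 that the study used. Intervals are 95%. Group-mean fold changes use a pseudocount of 1. Single reads are not independent molecules, as no molecular identifiers were used, so counting intervals cover counting error only.

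The members and lists were chosen with earlier results of these data known. Named genes are all members, *kat2a*, the 5 models nearest to each *glud1* model, and of each part of the wider list the called models and up to 3 more with the smallest p, apart from some that are not reported here. Levels were not compared between genes, since no lengths of these models were used. Alternatives were a threshold of 0.05, a mean count of at least 50 or no filter, scaling by total reads or by the upper quartile, limma-trend, summed homeologs, pseudocounts of 0.1 and 5, and leaving out each library.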

Additional observations from a re-analysis of the deposited data

How the results depend on the processing

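Log2 fold changes of *glud1.1* lay between −3.78 and −3.60 without single libraries, and were −3.43 with a pseudocount of 5 and −3.86 with scaling by total reads. Those of *glud1.L* lay between −3.33 and −2.20 without single libraries. Calls over all models were 517 (197 lower, 320 higher) with a mean count of at least 50, where fewer models were tested. Among the same 11272 models they fell to 465 (242 lower, 223 higher) at a threshold of 0.05, and to 190 (171 lower, 19 higher) with scaling by total reads. Without single libraries they ranged from 82 to 2257, with 76 to 836 lower and 6 to 1421 higher. Of the 52 tested models of the wider list 5 were called, against 3 of 29 with a mean count of at least 50 (1 lower). There *pycr1.L* and *arg1.L* were not tested, as they average fewer than 50 counts. With no filter 3 of 82 models were called (1 higher). Of the 52 models, 3 were called with limma-trend (1 higher), 3 at a threshold of 0.05 (1 higher) and 0 with scaling by total reads (0 lower, 0 higher). Without single libraries 0 to 10 were called, with 0 to 5 lower and 0 to 5 higher. In these fits the lone sample of a group is assumed to vary like the other group. No paired analysis was possible because the deposited means do not tie the recovered libraries to the replicate numbers of the labels. The *glud1* values of Gcn5-AS embryos rest on 18 to 40 reads per library, so the size of their fold change is known only roughly.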
